A study of Mus musculus with 16 samples.

Results

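The comparison described here is between cells that received siRNAs against *Wdr5* (siWdr5) and cells that received a non-targeting siRNA (nt control), both collected at day 6 of reprogramming. It rests on 4 of the 16 RNA sequencing libraries of the series, 2 per group, and on the 14028 of 18990 listed genes whose mean log2 CPM (read counts scaled to a common library total) over the 16 libraries was at least 0. All cells were wild-type BL6 mouse embryonic fibroblasts (MEFs) carrying rtTA and the tet-STEMCCA lentivirus, which expresses Oct4, Sox2, Klf4 and c-Myc (OSKM) under doxycycline. They were transfected with pooled siRNAs a day before doxycycline was added, and grew on gelatin in a medium with LIF, ascorbic acid, chiron and the TGFb inhibitor Alk5i, so that the controls carried these as well. The other libraries are the nt control and siWdr5 at day 3, and cells with siRNAs against *Brca1* or *Bard1* on both days. The cultures were whole populations, in which fewer cells of a type and less RNA per cell cannot be told apart.

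WDR5 is a WD-repeat protein that holds together the core of the complexes that methylate histone H3 at lysine 4, a mark of active promoters, and it is known as a factor needed for the self-renewal of pluripotent cells. During early reprogramming, fibroblasts shut down genes of the mesenchymal state, such as those of matrix and contractile fibers, and turn on epithelial junction genes in the mesenchymal-to-epithelial transition (MET). Pluripotency genes follow later. The lists used here cover these programs and the other cell types a MEF culture could hold.

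The 2 siRNAs against *Wdr5* in the siRNA library of the study are shown because they give the part of the transcript that was aimed at. The methods describe 3 siRNAs per gene while the table used here holds 2, and whether these went into the libraries is not given in the sources used here. The antisense strands are written 5′ to 3′, with the seed (bases 2 to 8) in capitals.

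siRNA 1: cAUAGUUUggcuuaacuggtg
siRNA 2: cACGGUUGaaaugaacggctg

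The target of siRNA 1 is a coding stretch of exon 3 at chr2:27519355-27519373 on the plus strand of mm10, and the target of siRNA 2 spans the junction of exons 7 and 8 between chr2:27520909-27525121, also coding. Each matched 2 of the 4 *Wdr5* transcripts in the annotation used here.

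At day 6 *Wdr5* itself, on chromosome 2 (27515157 to 27536535), was close to the control. It stood at 91.8 and 98.1 CPM in the nt control and at 85.5 and 72.4 CPM in siWdr5. Both siWdr5 libraries lay below both controls, but the log2 fold change of −0.27 (SE 0.14, limma, adjusted p = 0.189) did not pass the threshold. The day 3 libraries had 132 and 130 CPM in the nt control against 50.6 and 55.3 CPM in siWdr5. The change at day 6 differed from that at day 3 by 1.04 on the log2 scale (limma interaction, adjusted p = 0.0125). The transcript was therefore lowered at day 3, while the day 6 values describe cells in which no reduction passed the test. *Brca1* (33.2 and 42.6 CPM in the nt control, 42.6 and 38.3 CPM in siWdr5) and *Bard1* (11.3 and 14.01 against 11.9 and 13.2 CPM) had overlapping groups, with adjusted p = 0.621 and 0.981.

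At day 6, 678 genes were called at day 6 (adjusted p under 0.05 and a change over 2-fold), which is 4.83% of the genes tested. Of these, 467 were higher in siWdr5 (3.33%) and 211 lower (1.5%). In each of the 678 the replicate 1 libraries and the replicate 2 libraries gave the same direction. The thresholds themselves favor this, since they ask for a change over 2-fold that is large beside the spread. The pair of replicate 2 gave the larger size in 403 of the 467 higher genes, with a median of 1.57 against 1.11 in replicate 1. The calls lean on that library: without siWdr5 replicate 2, 33 genes were called, 30 of them shared, and the median change of the 467 was 1.17. Without nt replicate 2 or nt replicate 1 the counts were 206 and 433, and without siWdr5 replicate 1 the count was 796. Without the fold threshold, 2260 genes (16.1%) were higher and 800 (5.7%) lower. The counts of list members below at adjusted p under 0.05 are to be read beside these shares.

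**Figure D1:**
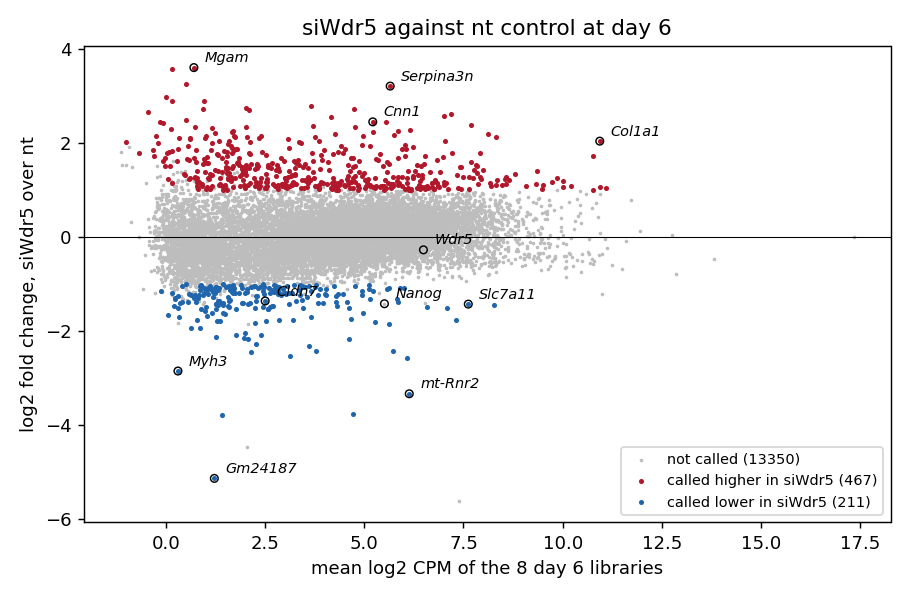
Log2 fold change of siWdr5 over nt control at day 6 (vertical axis) against the mean log2 CPM of the 8 day 6 libraries (horizontal axis), 1 point per gene tested. The 467 genes called higher reach the level of *Col1a1*, while the largest falls belong to structured and mitochondrial RNAs, and *Wdr5* lies near 0.

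**Figure D2:**
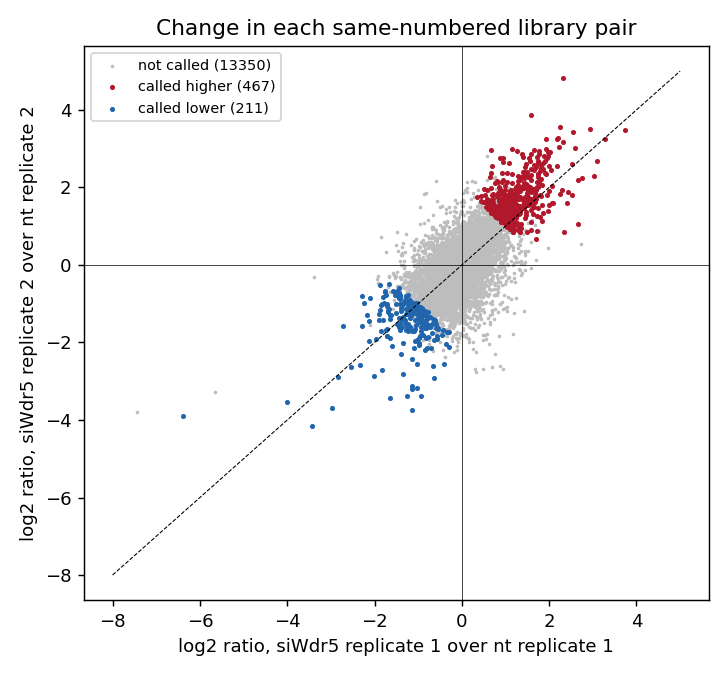
Log2 ratio of siWdr5 over nt control in the libraries numbered 2 (vertical axis) against those numbered 1 (horizontal axis), 1 point per gene tested, with a dashed line of equality. All 678 called genes keep their direction in both pairs, and most of the higher ones lie above the line.

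The cultures expressed fibroblast and epithelial genes together. *Thy1*, which marks MEFs, was at 470 and 422 CPM in the nt control and 456 and 499 CPM in siWdr5, and *Krt18*, an epithelial keratin, at 115 and 189.99 against 120.4 and 77.5 CPM. For both genes the groups overlapped. Some measures differed between the libraries, not all of them by group. The siWdr5 libraries held 14102198 and 26832534 reads and the controls 11700453 and 11248043. The summed level of *Pou5f1*, *Sox2*, *Klf4* and *Myc*, whose reads come from the cassette and the endogenous genes together, was 1070 and 1343 CPM in the nt control and 1073 and 648 CPM in siWdr5, so that siWdr5 replicate 2 was the lowest. By length of the longest transcript, the median change of protein-coding genes was −0.05 in the quartile of shortest genes and 0.26 in that of the longest, against 0.08 over all genes tested. With this length trend removed, 347 genes were called higher and 254 lower, and after setting the median gene of every library to the same value 392 and 263. Their part in the results below was not tested.

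The 10 called genes with the largest rise spanned several functions, and those with the most reads are given first. *Serpina3n*, a serine protease inhibitor, stood at 19.9 and 18.95 CPM in the nt control and at 153 and 214 CPM in siWdr5 (log2 fold change 3.22, SE 0.20, limma, adjusted p = 0.000157). *Has2*, which makes hyaluronan, rose from 4.38 and 4.68 to 26.2 and 38.0 CPM (2.80, adjusted p = 0.00341). *Ptx3*, a secreted pentraxin of innate immunity, rose from 10.9 and 8.83 to 50.0 and 86.2 CPM (2.74, adjusted p = 0.00362). For each of these 3 genes both siWdr5 libraries were above both controls. Such a separation in either direction was seen in 68.6% of all genes tested.

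The largest fold changes belonged to genes with few control reads. *Mgam*, a maltase of the brush border, had 3 and 6 reads in the nt control and 71 and 177 reads in siWdr5 (3.61, adjusted p = 0.00144). *Selp*, the adhesion molecule P-selectin, had 3 and 4 against 51 and 109 reads (3.26, adjusted p = 0.00164). *Adra1b*, an alpha-adrenergic receptor, had 2 and 3 against 35 and 60 reads (2.90, adjusted p = 0.00362). With so few control reads these fold changes depend on the count that the authors added before taking logs. The same holds for *Ppbp*, a platelet chemokine (2.99), and *Malrd1* (3.58), with 3 and 4 and with 5 and 1 control reads. *Col6a5*, a collagen VI chain, and *Sprr2b*, a cornified envelope protein of a family of similar genes, rose by 2.90 and 2.75.

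**Figure D3:**
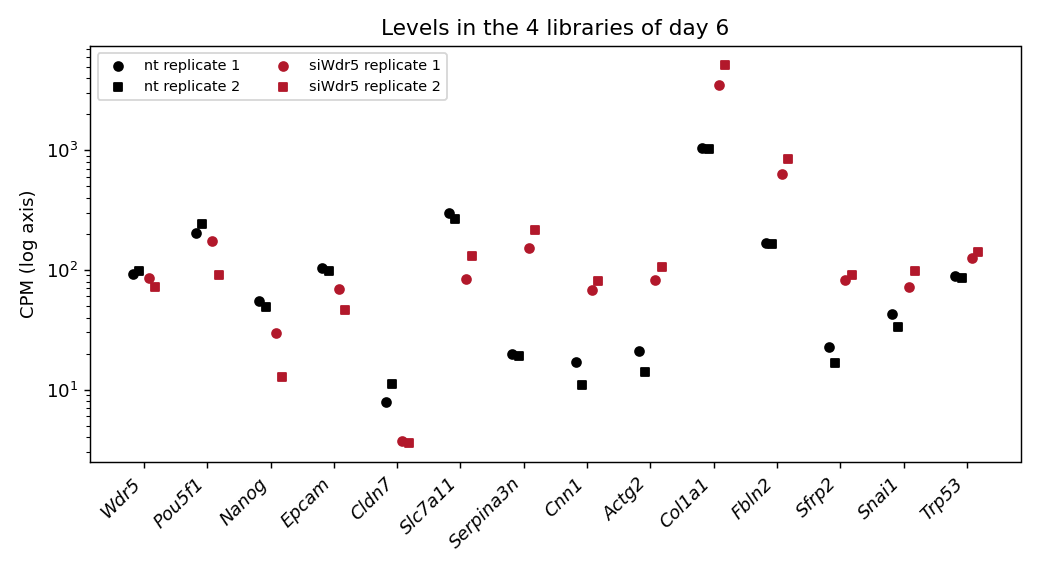
CPM on a log axis of 14 genes in the 4 libraries of day 6, with nt control in black, siWdr5 in red, circles for replicate 1 and squares for replicate 2. *Serpina3n*, *Cnn1*, *Actg2*, *Col1a1*, *Fbln2* and *Sfrp2* are separated by far more than the replicates differ, while *Wdr5* is not, and *Pou5f1* and *Nanog* are lowest in siWdr5 replicate 2.

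Contractile genes, which build the actin and myosin fibers of activated fibroblasts and smooth muscle, were the list with the highest median. Of the 13 members tested, 12 rose at adjusted p under 0.05 and 10 of these over 2-fold, none fell, and the median was 1.75. *Cnn1*, the actin-binding protein calponin, stood at 16.9 and 10.9 CPM in the nt control and 68.2 and 81.5 CPM in siWdr5 (2.46, SE 0.34, limma, adjusted p = 0.00362). *Actg2*, the enteric smooth muscle actin, went from 21.0 and 13.9 to 83.0 and 106 CPM (2.45). *Myh11*, the smooth muscle myosin heavy chain, went from 24.0 and 24.9 to 77.4 and 80.8 CPM (1.69), and *Tpm2*, a tropomyosin, rose by 1.65. The groups of all 4 genes were apart. Without siWdr5 replicate 2 the median stayed at 1.69, but none of the 13 passed the threshold.

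The promoters of these genes are a textbook target of serum response factor, which binds the CArG box (CC, a run of A or T, GG). Searched on both strands from 250 bases before to 50 after the start site in RefSeq (GRCm38.p6), the box was in 3 of the 11 contractile genes with a promoter in the table and in 1.81% of all genes. The 3 matches are shown as 30 bases with the box in capitals, on the strand of the gene.

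*Actc1*: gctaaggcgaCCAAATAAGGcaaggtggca
*Myl9*: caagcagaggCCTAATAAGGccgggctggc
*Acta1*: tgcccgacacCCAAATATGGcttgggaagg

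They lie at chr2:114052903-114052932 on the minus strand, chr2:156775293-156775322 on the plus strand and chr8:123894829-123894858 on the minus strand. *Myl9*, the regulatory myosin light chain, stood at 26.6 and 20.9 CPM in the nt control and 88.9 and 129 CPM in siWdr5 (2.18, adjusted p = 0.00362). *Acta1*, the skeletal muscle actin, had 2.70 and 3.25 against 6.34 and 6.17 CPM (1.08, adjusted p = 0.104), and *Actc1*, the cardiac actin, was below the expression filter. These 3 genes were named for their promoters after the values had been seen, and *Cnn1* and *Tpm2* have promoters in the table without this box.

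Collagens and matrix genes rose broadly. Of 36 members, 26 rose and 1 fell at adjusted p under 0.05, 19 and 1 over 2-fold, and the median was 1.04. *Col1a1*, the main chain of type I collagen, stood at 1048 and 1016 CPM in the nt control and 3507 and 5181 CPM in siWdr5 (2.05, SE 0.24, adjusted p = 0.0021). *Fbln2*, a basement membrane fibulin, went from 169 and 163 to 633 and 847 CPM (2.14). *Timp3*, an inhibitor of matrix metalloproteinases, went from 38.7 and 27.2 to 145 and 175 CPM (2.29), and *Col8a1* rose by 1.38. The summed level of the list was 14819 and 15184 CPM in the nt control and 28844 and 35982 CPM in siWdr5. The 1 member that fell, named after its value was seen, was *Postn* (periostin), with 54.1 and 52.05 CPM in the nt control and 24.3 and 24.8 CPM in siWdr5 (−1.11, adjusted p = 0.0145). At day 3 *Postn* had changed by 1.04, and the difference between the days was −2.15 (adjusted p = 0.0117). Without siWdr5 replicate 2, 1 matrix gene passed, with a median of 0.93 over the list.

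Of 15 fibroblast surface and cytoskeleton markers, 8 rose and 1 fell, with a median of 0.71. *Fbn1*, which forms microfibrils, stood at 256 and 257 against 553 and 709 CPM (1.29, adjusted p = 0.0021). *Pdgfrb*, a growth factor receptor of mesenchymal cells, stood at 95.5 and 91.8 against 182 and 215 CPM (1.08, adjusted p = 0.00375). *Cdh2*, the mesenchymal N-cadherin, and *Itga5*, a fibronectin receptor chain, rose by 0.98 and 0.80. The member that fell, named after its value was seen, was *Nt5e* (CD73), at −0.84 (adjusted p = 0.0459).

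Mesenchymal transcription factors moved in the same direction: 8 of 15 rose, none fell, and the median was 0.58. *Snai1*, a repressor of E-cadherin, stood at 42.9 and 33.4 CPM in the nt control and 71.3 and 97.6 CPM in siWdr5 (1.14, adjusted p = 0.0068). *Zeb1*, another such repressor, went from 59.2 and 49.1 to 86.9 and 110 CPM (0.86, adjusted p = 0.00649). *Osr1* and *Runx2*, regulators of connective tissue and bone, rose by 1.64 and 0.95. Without siWdr5 replicate 2 no member of this list passed, with a median of 0.47.

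Epithelial junction and identity genes were the list with most falls: 12 of 29 fell at adjusted p under 0.05, 5 of them over 2-fold, none rose, and the median was −0.67. *Cldn7*, a tight junction claudin, stood at 7.81 and 11.2 CPM in the nt control and 3.72 and 3.57 CPM in siWdr5 (−1.36, SE 0.27, adjusted p = 0.00957). *Crb3*, an apical polarity protein, went from 21.8 and 21.7 to 12.3 and 7.01 CPM (−1.23, adjusted p = 0.0124). *Tjp3*, a tight junction scaffold, fell by 1.22 on the log2 scale, and *Spint2*, a protease inhibitor of epithelia, by 0.76. *Epcam*, the epithelial adhesion molecule, went from 105 and 98.3 to 68.7 and 46.3 CPM (−0.85, adjusted p = 0.0241).

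*Cdh1*, the E-cadherin of adherens junctions, did not pass at day 6. It had 117 and 159 CPM in the nt control and 113 and 117 CPM in siWdr5, which overlap (−0.24, adjusted p = 0.367). At day 3 its change was −1.46, and the difference of 1.22 between the days passed the test (adjusted p = 0.0419). The epithelial median was −0.43 without siWdr5 replicate 2, where no member passed.

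Of the reprogramming factors, 1 passed. *Pou5f1* (Oct4) had 205 and 241 CPM in the nt control and 174 and 90.2 CPM in siWdr5 (−0.83, adjusted p = 0.0475). This call depended on the fit. *Pou5f1* did not pass without the expression filter, without the trend, with voom or with the length trend removed. It did pass with the stricter filter, other pseudocounts, centring, quantile normalization, a replicate block, only the 4 compared libraries and all 16. Its change was −0.35 without siWdr5 replicate 2 and −1.30 without siWdr5 replicate 1. *Sox2*, *Klf4* and *Myc* had −0.55, −0.53 and −0.35, with adjusted p = 0.157, 0.152 and 0.252. In all 4, siWdr5 replicate 2 was the lowest of the 4 libraries, while *Sox2* (177 CPM) and *Myc* (330 CPM) in siWdr5 replicate 1 were within the control range.

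Of 26 pluripotency network genes tested, 2 fell and 2 rose at adjusted p under 0.05, beside 5.7% and 16.1% of all genes. Their median was −0.56. *Dppa3*, a germ cell and preimplantation gene, had 14.5 and 9.94 CPM in the nt control and 5.17 and 3.46 CPM in siWdr5 (−1.50, adjusted p = 0.0151). *Fut4*, which makes the SSEA1 epitope, fell by 1.09 (adjusted p = 0.0245). *Alpl* (alkaline phosphatase) and *Tbx3* (a T-box factor of naive pluripotency), both also expressed outside pluripotent cells, rose by 0.53 and 0.52.

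*Nanog*, a core pluripotency factor, had 55.5 and 49.3 CPM in the nt control and 29.8 and 12.8 CPM in siWdr5 (−1.42, SE 0.48, adjusted p = 0.0574). *Sall4*, an early pluripotency factor, had 28.6 and 35.1 against 25.6 and 14.4 CPM (−0.72, adjusted p = 0.0591). *Esrrb*, which comes on later, had 6.45 and 8.03 against 6.34 and 3.00 CPM (−0.72, adjusted p = 0.152). None of the 3 passed, and in each siWdr5 replicate 2 was the lowest. These calls depend on the fit: with only the 4 compared libraries *Nanog* (adjusted p = 0.00434) and *Sall4* (adjusted p = 0.033) passed. Without siWdr5 replicate 1 all 3 passed, and *Sall4* also did so with all 16 libraries, with voom and with the length trend removed. Over the pluripotency list, 8 genes fell and 1 rose without siWdr5 replicate 1, and none passed without siWdr5 replicate 2, where the median was −0.24. With the length trend removed 6 fell and 1 rose, with a median of −0.79. For *Sall4* the change at day 6 was smaller than at day 3 by 1.72 (adjusted p = 0.0289).

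**Figure D4:**
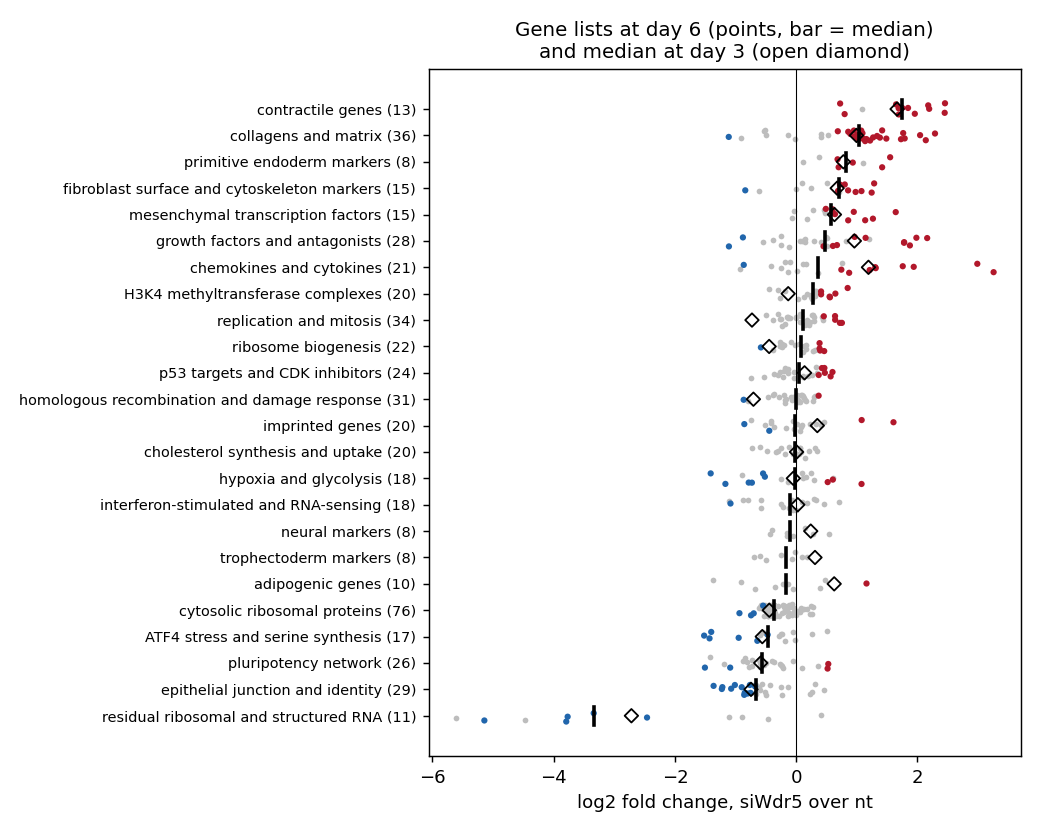
Log2 fold change at day 6 of the tested members (points, red or blue where adjusted p is under 0.05) of the lists with 8 or more of them, with the median at day 6 as a black bar and at day 3 as an open diamond. Contractile and matrix genes lie to the right and epithelial genes to the left on both days, while the medians of replication and of homologous recombination genes are −0.73 and −0.70 at day 3 and 0.11 (−0.06 with quantile normalization) and 0.00 at day 6.

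Secreted signals included both agonists and antagonists. Of 28 growth factors and antagonists, 10 rose and 2 fell, with a median of 0.48. *Sfrp2*, a secreted Wnt antagonist, stood at 22.5 and 16.6 CPM in the nt control and 81.9 and 91.3 CPM in siWdr5 (2.16, SE 0.17, adjusted p = 0.000841), and *Sfrp1*, of the same family, rose by 1.78. *Wnt4*, a ligand, went from 14.7 and 12.8 to 39.2 and 64.9 CPM (1.88, adjusted p = 0.00394). *Tgfb3*, a TGF-beta ligand, went from 22.3 and 18.9 to 62.9 and 78.9 CPM (1.78, adjusted p = 0.0021), in a medium with the inhibitor of its receptor. The 2 that fell, named after their values were seen, were the Wnt antagonist *Dkk2* (−1.11) and the growth factor *Hgf* (−0.88).

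Of 21 genes in the list of chemokines and cytokines, 9 rose and 1 fell. One of the 9 is *Selp*, the adhesion molecule named above. *Csf1*, the macrophage growth factor, was the most abundant of those named and went from 231 and 216 to 480 and 562 CPM (1.21, adjusted p = 0.00362). *Cxcl14* went from 10.7 and 11.8 to 35.5 and 52.3 CPM (1.94). *Ccl8*, a monocyte chemoattractant, went from 3.82 and 4.36 to 12.1 and 15.7 CPM (1.76), below its change of 3.66 at day 3 (difference −1.90, adjusted p = 0.0196). The 1 that fell, named after its value was seen, was *Il11* (−0.86, adjusted p = 0.0463).

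Among H3K4 methyltransferase complex genes, 20 were tested. Of these, 6 rose at adjusted p under 0.05, beside 16.1% of all genes, none over 2-fold. None fell, and the median was 0.28. *Setd1b*, a catalytic subunit, stood at 42.0 and 52.2 CPM in the nt control and 79.7 and 89.6 CPM in siWdr5 (0.85, adjusted p = 0.00445). *Hcfc1*, a shared subunit, went from 202 and 198 to 290 and 297 CPM (0.55), and *Ncoa6* and *Kmt2a* rose by 0.65 and 0.41. These are long genes, and with the length trend removed 2 rose and the median was 0.09, and with quantile normalization 2 rose and 1 fell.

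Of 34 replication and mitosis genes, 5 rose, a share near the 16.1% of all genes, none of them over 2-fold, and none fell, whereas 25 had fallen at day 3, when 16.8% of all genes did. Their median was 0.11, or −0.06 with quantile normalization. *Mki67*, a marker of cycling cells, had 131 and 152 CPM in the nt control and 225 and 216 CPM in siWdr5 (0.64, adjusted p = 0.0328), and its difference of 1.23 from day 3 passed the test (adjusted p = 0.0435). *Rrm2*, which supplies deoxynucleotides, rose by 0.64 and the cyclins *Ccnd2* and *Ccnd3* by 0.76 and 0.72. In the test of the difference between the days, 4 of the 34 passed, all toward higher at day 6, beside 3.4% of all genes.

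Of 31 genes of homologous recombination and the damage response, 1 rose and 1 fell, and with the length trend removed 1 rose and 5 fell, with a median of −0.17. *Rpa1*, which coats single-stranded DNA, rose by 0.37. At day 3, 22 of them had been lower. Of 24 p53 targets and CDK inhibitors, 6 rose, beside 16.1% of all genes, none of them over 2-fold. With quantile normalization 1 rose and 2 fell. *Trp53* itself had 89.5 and 85.2 CPM in the nt control and 125 and 141 CPM in siWdr5 (0.60, adjusted p = 0.00991), and *Plk2*, a p53 target kinase, rose by 0.57.

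Metabolic and stress genes moved in smaller groups. Of 17 ATF4 stress and serine synthesis genes, 6 fell, none rose, and the median was −0.47. *Slc7a11*, the cystine transporter, stood at 300 and 266 CPM in the nt control and 83.7 and 131 CPM in siWdr5 (−1.43, SE 0.28, adjusted p = 0.00876). *Trib3*, a stress-induced pseudokinase, went from 8.05 and 6.28 to 2.55 and 2.85 CPM (−1.40), and *Psph* and *Asns*, of serine and asparagine synthesis, fell by 0.95 and 0.64. None of the 17 passed without siWdr5 replicate 2, where the median was −0.50.

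Of 18 hypoxia and glycolysis genes, 3 rose and 6 fell, beside 16.1% and 5.7% of all genes. The list had no common direction (median −0.01). *Hk2*, a hexokinase, rose by 0.61, *Adm* (adrenomedullin) by 1.08 and *P4ha1*, a collagen prolyl hydroxylase, by 0.52. *Aldoc*, an aldolase, fell by 1.41. Of 20 cholesterol genes none passed.

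Of 76 cytosolic ribosomal protein genes, 4 fell, a share near the 5.7% of all genes, and none rose. The median was −0.36, or −0.17 without nt replicate 1. *Rpl39*, *Rps14*, *Rps7* and *Rpl5* fell by 0.93, 0.74, 0.70 and 0.54. The summed level of this list was 66846 and 55386 CPM in the nt control and 49371 and 48321 CPM in siWdr5. These are short genes: with the length trend removed 7 fell, 2 rose and the median was −0.17, while with quantile normalization 32 fell. Of 22 ribosome biogenesis genes, 4 rose and 1 fell, shares near the 16.1% and 5.7% of all genes. Among them *Polr1a*, the large subunit of RNA polymerase I, had 0.46 and *Nop58*, a box C/D snoRNP protein, −0.58. *Rrp12* and *Utp20* of ribosome assembly rose by 0.40 and 0.39.

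Among the 10 called genes with the largest fall, 8 make no messenger RNA. *mt-Rnr1* and *mt-Rnr2*, the mitochondrial ribosomal RNAs, stood at 61.0 and 125 CPM and at 143 and 312 CPM in the nt control, against 3.79 and 10.8 CPM and 18.1 and 24.0 CPM in siWdr5 (−3.77 and −3.34). *Gm24187*, annotated as a microRNA gene, had 214 and 230 reads in the nt control and 1 and 29 in siWdr5 (−5.14, SE 1.46, adjusted p = 0.0326), and *Gm15564*, annotated as antisense, fell by 3.79. *Gm24265* and *Gm22973* (small nuclear RNAs), *Rny1* (a Y RNA) and *Snord17* (a small nucleolar RNA) fell by 2.43 to 2.54. *Snord17* had 64.5 and 274 CPM in the controls, a wider gap than between the lower control and siWdr5 (29.4 and 20.6 CPM). Over all 44 small nucleolar RNAs tested, 9 were called lower, none higher, and the median was −0.83. Of the 11 residual ribosomal and structured RNAs, 5 were called lower and the median was −3.34. Of the 8 that make no messenger RNA, only *Gm22973* passed in the limma fit without the trend (adjusted p = 0.028). With the length trend removed, *Gm24187*, *Gm15564*, *Gm24265* and *Rny1* did not pass. Of the 11 list members, 2 then fell at adjusted p under 0.05, and the median was −3.28. The lowest value in this list, chosen after it was seen, was that of the ribosomal RNA gene *CT010467.1*, with 1013 and 1638 CPM in the nt control and 5.86 and 118 CPM in siWdr5 (−5.62, SE 1.83, adjusted p = 0.0517), which was not called. Their remaining level after ribosomal depletion and RNA isolation moved with the groups, and its part in these values was not tested.

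The other genes with the largest falls are annotated as protein-coding. *Lars2*, the mitochondrial leucyl-tRNA synthetase, had 148 and 246 CPM in the nt control and 25.6 and 39.9 CPM in siWdr5 (−2.58, adjusted p = 0.0404). Like most of the RNAs above, it did not pass in the limma fit without the trend (adjusted p = 0.101). Across these libraries its values had the same order as those of *mt-Rnr2*, and whether the reads share a source was not tested. *Myh3*, the embryonic myosin heavy chain of skeletal muscle, had 3.42 and 2.69 against 0.481 and 0.365 CPM (−2.85, adjusted p = 0.0039). Without siWdr5 replicate 2, 6 of 12601 protein-coding genes tested were called lower, against 160 with it.

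Imprinted genes had no common direction. Of 20 tested, 2 rose and 2 fell. *Dlk1*, a Notch-like ligand of preadipocytes, went from 7.41 and 5.96 to 20.3 and 20.2 CPM (1.61, adjusted p = 0.00375), while *Rian*, a non-coding RNA of the same imprinted cluster, went from 118 and 115 to 76.9 and 95.2 CPM (−0.44, adjusted p = 0.0453). *Plagl1*, a zinc finger factor, rose by 1.08 and *Sgce* fell by 0.85.

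Among markers of other cell types, the summed level of the primitive endoderm list was 885 and 820 CPM in the nt control and 1603 and 2040 CPM in siWdr5. Of 8 such markers 5 rose, but *Sparc*, *Lamb1* and *Lama1*, at 1.42, 0.68 and 0.70, also encode matrix proteins. *Cubn* had 1.10 and 1.25 against 3.17 and 3.72 CPM (1.55). Of 15 macrophage markers 6, among them the defining *Ptprc* and *C1qa*, are not listed in the table, and the sum of the others was 20.9 and 16.1 CPM in the nt control and 14.3 and 23.3 CPM in siWdr5. Of the 5 tested, *Csf1r* and *Mrc1* rose by 1.33 and 1.66, *Cd14* fell by 1.58 and *Lyz2* had −1.85 (adjusted p = 0.0523). Of 5 endothelial markers tested, *Tek* rose by 1.02 and *Plvap* fell by 1.12. Of the 10 skeletal muscle markers, 5 with *Myod1* and *Myog* are not listed, and *Des* (desmin), also a contractile gene, rose by 1.96. No neural, keratinocyte or trophectoderm marker passed. Of 10 tested genes of the adipogenic list only *Apob*, which encodes an apolipoprotein, passed (1.16), and the list median was −0.17. Of 18 interferon-stimulated genes 1 fell, *Bst2* (−1.09, adjusted p = 0.015).

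The question of what was left of the day 3 response can be asked with separate libraries. At day 3, 989 genes (7.05%) were called in siWdr5. Of the 575 called higher (4.1%), 238 were called higher at day 6 and 2 lower, and their median change at day 6 was 0.91. Of the 414 called lower at day 3 (2.95%), 41 were called lower at day 6 and none higher, with a median of −0.54. The rise was thus found again in 41.4% of genes and the fall in 9.9%, beside 3.33% and 1.5% of all genes at day 6. Across the 14028 genes, which are not independent replicates, the changes on both days had a Pearson r of 0.585. With all libraries 279 genes were called on both days, and far fewer were without siWdr5 replicate 2.

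The change itself differed between the days for 195 genes (1.39%), with 97 above (0.691%) and 98 below (0.699%) the day 3 value. This balance depends on scaling, since the median gene is 0.12 higher in the difference: centred on the median gene, 34 were above and 118 below, and with quantile normalization 56 and 109. With the length trend removed the counts were 67 and 120. Of the 97 above, 84 had a point value below the control at day 3. *Slc13a5*, a citrate transporter, had 4 and 3 reads in the nt control and 23 and 75 in siWdr5 at day 6 (2.46), against −0.30 at day 3 (difference 2.76, adjusted p = 0.0382). *Penk*, which encodes enkephalin, had 10.9 and 4.92 against 17.4 and 38.5 CPM (1.82), after −0.74 at day 3 (adjusted p = 0.0271). *Calca*, *C2cd4a* and *Fstl4* had differences of 2.72, 2.67 and 2.43.

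Of the 98 genes with a negative difference, 94 had a point value above the control at day 3. *Gjb2*, the gap junction protein connexin 26, had changed by 2.70 at day 3 and had 9.81 and 26.0 CPM in the nt control and 12.3 and 3.84 CPM in siWdr5 at day 6, which overlap (difference −3.92, adjusted p = 0.0163). *Aldh1a3*, which makes retinoic acid, had changed by 1.77 at day 3 and stood at 7.33 and 7.71 against 3.10 and 4.03 CPM at day 6 (−1.09, difference −2.86, adjusted p = 0.0112). *Tns4*, a tensin of epithelial cells, *3830417A13Rik* and *Myh3* had differences of −3.30, −3.01 and −3.00. Without nt replicate 1, 23 genes passed this test, without siWdr5 replicate 2 it was 26, without siWdr5 replicate 1 it was 81 and without nt replicate 2 it was 102.

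**Figure D5:**
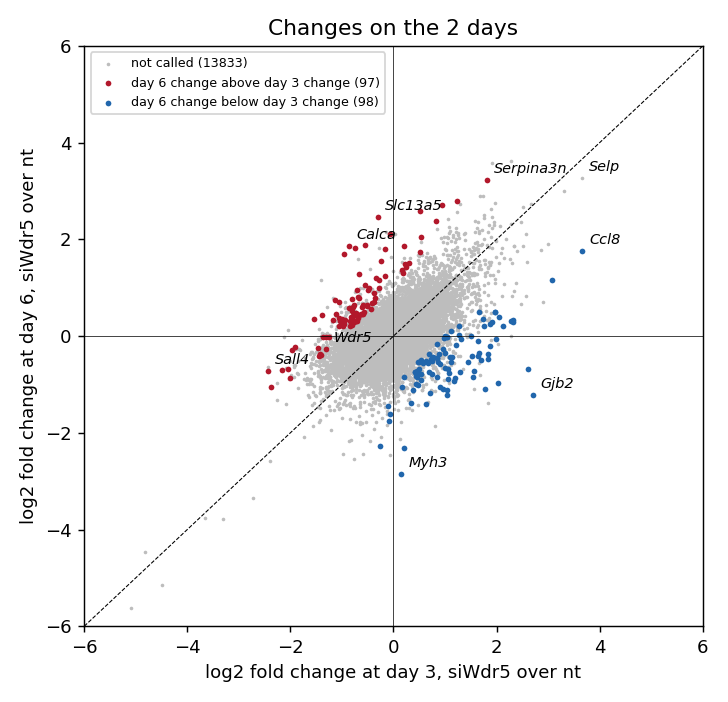
Log2 fold change of siWdr5 over nt control at day 6 (vertical axis) against day 3 (horizontal axis), 1 point per gene tested, with the 97 and 98 genes whose change differed between the days in red and blue and a dashed line of equality. *Serpina3n*, *Selp* and *Ccl8* are far above 0 on both days, *Wdr5* and *Sall4* are below 0 at day 3 and nearer 0 at day 6, and *Gjb2* changes side.

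Changes over time were read from libraries of neither group, as the average of siBrca1 and siBard1 from day 3 to day 6. This course is itself that of knockdown cells and does not stand for unperturbed reprogramming. Over that course 1629 genes (11.6%) were called. Of the 552 that fell (3.93%), 196 were called higher in siWdr5 at day 6 and none lower, with a median of 0.81. Of the 1077 that rose (7.68%), 111 were called lower and 25 higher, with a median of −0.53. In percent these are 35.5% and 10.3%, beside 3.33% and 1.5% of all genes. With all libraries 307 genes were called against the course. Fewer were without nt replicate 1 or nt replicate 2, and far fewer without siWdr5 replicate 2.

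Set against the mean of siBrca1 and siBard1 at day 6, which does not use the nt control, siWdr5 had 167 genes called (1.19%), 119 higher (0.848%) and 48 lower (0.342%). *Prg4*, the joint lubricant lubricin, led the higher ones with 5.93 and 9.11 CPM in siWdr5, 1.26 and 2.36 CPM in siBrca1 and 1.49 and 1.31 CPM in siBard1 (2.24, adjusted p = 0.0112). *Abcc9*, *Megf6*, *Serpinb2* and *Serpina3n* followed at 2.18, 2.11, 2.09 and 2.08. *Agtr2*, an angiotensin receptor, had 21.5 and 15.4 CPM in siWdr5, 63.1 and 76.9 CPM in siBrca1 and 54.8 and 86.8 CPM in siBard1 (−1.93, adjusted p = 0.00232), and its control level was 65.6 and 66.2 CPM. *Ifit1*, an interferon-induced gene, had −2.57 (adjusted p = 0.022), with 0.481 and 0.976 CPM in siWdr5 and 2.17 to 6.99 CPM in the 4 siBrca1 and siBard1 libraries. Against the nt control, the 18 interferon-stimulated genes tested had medians of −0.09 for siWdr5, 0.62 for siBrca1 and 0.25 for siBard1. *Morc1* and *Dppa3*, both of germ cells, and *Mylpf*, a muscle myosin light chain, had −2.52, −1.99 and −1.90.

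In this contrast no test was made between lists. Of the 36 matrix genes, 14 were higher in siWdr5 than in the other knockdowns and 1 lower (median 0.60), beside 3.9% and 2.45% of all genes. *Col1a1* and *Fbln2* were higher by 1.22 and 1.33 (adjusted p = 0.0205 and 0.0155), and *Sfrp2* by 1.87. Of the 13 contractile genes 1 was higher (median 0.76), and *Cnn1* with 0.78 (adjusted p = 0.122) and *Myh11* with 0.06 (adjusted p = 0.879) did not pass. No epithelial gene passed in either direction (median −0.23). *Nanog* was lower by 1.73 on the log2 scale (adjusted p = 0.0404), but did not pass without the trend, where no gene was called lower. Fits with a library left out were not made for this contrast. Against the nt control, which the 3 comparisons share, contractile genes had a median of 1.26 for siBrca1 and 1.21 for siBard1, beside 1.75 for siWdr5, while the same limma test called 0 and 10 (0.0713%) genes for siBrca1 and siBard1, with 1123 and 1908 at an unadjusted p under 0.05.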

How the data were processed

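RNA depleted of ribosomal RNA was sequenced from 16 libraries, 2 per group. Per the study's methods and processing notes, the authors aligned reads with STAR 2.5.2b to mm10 and deposited log2 CPM values made with edgeR 3.20.9, which adds a small count before the log. The read counter, annotation, strand setting and any filter are not given in the sources used here. The deposited values step in whole reads, which gave totals of 11169738 to 26832534 reads per library, so that 3 reads equal 0.115 to 0.26 CPM. The printed CPM is 2 to the power of the deposited value.

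The filter kept genes whose log2 CPM averaged 0 or more in the 16 libraries. The genes nearest this limit were *AC153962.1* and *1810041L15Rik* inside and *Gm12319* and *Gm29480* outside. The 8 libraries of day 6 were fitted with limma 3.58.1 (R 4.3.3) with a trend on mean expression, 1 mean per group, moderated two-sided tests and Benjamini-Hochberg adjustment over all genes. A gene was called at adjusted p under 0.05 and an absolute log2 fold change over 1. The difference between the days was an interaction over all 16 libraries. In data simulated for siWdr5 against nt at day 6 with 14243 genes, 98% of genes changed by 1.5 on the log2 scale were called with the right sign. Every simulated gene had the same small spread, and no library effect was added. This share therefore checks the fit and is not its power in the measured data. Alternatives were other scalings, filters and pseudocounts, no trend, voom on recovered reads, a replicate block and each library left out.

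Named were the targets and key factors, the 10 largest rises and falls among called genes, and the 4 members of each list with the smallest p. The 5 largest positive and negative values of the other contrasts were named as well. These largest values were taken among called genes with the same direction in both replicate numbers. The member of the homologous recombination list that fell is not reported here. The members and lists were chosen with earlier results of these data known. Without the strand setting, exons shared with a gene on the other strand (10% or more of *Penk*, *Selp*, *Timp3*, *Fbn1*, *Sfrp2*, *Pou5f1*, *Tgfb3*, *Rpl5* and *Psph*) cannot be assigned to 1 gene. Transcripts, lengths and siRNA sites are from GENCODE on GRCm38.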

Additional observations from a re-analysis of the deposited data

Results flagged for a closer look

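For some named genes the change in siWdr5 against the nt control differed between day 6 and day 3 in the limma interaction at adjusted p under 0.05. The values are log2 fold change at day 6 minus that at day 3. The difference was negative for *Gjb2* (−3.92), *Tns4* (−3.30), *3830417A13Rik* (−3.01), *Myh3* (−3.00), *Aldh1a3* (−2.86), *Postn* (−2.15), *Il11* (−2.06), *Hgf* (−1.94), *Apob* (−1.92), *Ccl8* (−1.90) and *Rian* (−1.20).

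It was positive for *Slc13a5* (2.76), *Calca* (2.72), *C2cd4a* (2.67), *Penk* (2.56), *Fstl4* (2.43), *Sall4* (1.72), *Has2* (1.58), *Serpina3n* (1.40), *Mki67* (1.23), *Cdh1* (1.22), *Lama1* (1.07), *Wdr5* (1.04), *Hcfc1* (0.87), *Rrm2* (0.83), *Hk2* (0.79), *Rrp12* (0.67) and *Polr1a* (0.65). With 2 libraries per group no single library could be tested as standing apart.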

How the results depend on the processing

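The 678 genes called in siWdr5 against the nt control at day 6 became 442 when the filter was raised to a log2 CPM of 2, 3060 without the fold threshold, and 33 to 796 with 1 library left out. The 195 genes that differed between the days became 20 without the trend, 622 without the fold threshold and 23 to 102 with 1 library left out. The 167 genes that differed from the other knockdowns became 100 with the stricter filter, 10 without the trend and 890 without the fold threshold. With 1 library left out, the genes called on both days numbered 15 to 309 (279 with all), those called against the course 8 to 348 (307), and list members called 7 to 91 (79). In those fits the lone sample is assumed to vary like the other groups.

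With quantile normalization the medians of replication, p53, interferon and ribosome biogenesis genes were −0.059, −0.16, 0.0047 and −0.053. The p53 median was −0.028 after centring and the ribosome biogenesis median −0.019 with the length trend removed. *Brca1* had −0.040 with quantile normalization, −0.13 with the length trend removed and −0.074 to 0.29 with 1 library left out. *Bard1* had 0.0043 with voom and −0.17 to 0.15 with 1 library left out, and *3830417A13Rik* had −2.08 to 0.12. The cause of these shifts was not tested.

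Same-numbered nt and siWdr5 libraries did not deviate together (r = −0.07 across genes), while siBrca1 had r = 0.20 with nt and 0.26 with siWdr5, and siBard1 had 0.17 and 0.003. Nothing in the labels says what a number shares, so the main fit does not treat the numbers as pairs. With a replicate block, 729 genes were called, 488 higher and 241 lower, 249 differed between the days and 215 from the other knockdowns. The block also brought *Nanog* (adjusted p = 0.0107), *Lyz2* and *Mylpf* past the limma threshold, and 13 ribosomal protein genes fell. Of 113 named genes that passed, all kept their direction in every alternative that tested them, and 8 passed without siWdr5 replicate 2. These 113 were counted because they passed with all libraries, and several alternatives leave the fold change as it was. The shared direction was thus favored in advance. The length correction, and leaving out libraries for the lists and for the genes called at day 3 or over the course, were chosen after seeing the data.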
